A study of Mus musculus with 75 samples.

Results

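The transcriptomes of mouse skin fibroblasts late and early in a culture course were compared, at passage 7 (P7) against passage 1 (P1). The groups were chosen by their labels and comprise 4 RNA-seq libraries of P7 and 4 of P1, which are 8 of the 75 samples of the series, and all genes of their count files were used. The fibroblasts came from the skin of 2-month-old female C57BL/6 mice, carried no transgene or deletion, received no treatment, and were grown in DMEM with 10% fetal bovine serum in both groups. The groups therefore differ by passage number and by the time in culture that goes with it, and the libraries of P3 and P5, 4 each, are given beside them. The labels do not state that the replicates are separate animals or cultures, so the p-values measure the spread between these libraries, which may be technical.

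Fibroblasts are the connective tissue cells that build the collagen matrix of the dermis, remodel it with proteases, and send growth factors and cytokines to neighbouring cells. A culture that has divided many times reaches replicative senescence, a lasting exit from the cell cycle in which cells enlarge, remain metabolically active and secrete matrix proteins, proteases and inflammatory signals. The p53 pathway, through the kinase inhibitor p21, and p16 are the brakes usually held to keep such cells from dividing. Genes of the cell cycle and markers of keratinocytes, muscle and macrophages were set aside here, and the other pathways are described.

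Values are read counts scaled to the library size by TMM (CPM), given in the order of replicates 1 to 4. For every gene given with its value in each library, all P7 libraries lay on 1 side of all P1 libraries, except where an overlap is stated. A log2 fold change is P7 minus P1, so positive values are higher at P7, and is given ± its standard error from edgeR's quasi-likelihood test with Benjamini-Hochberg adjustment over the 13442 genes tested. A gene passed with an adjusted p under 0.05 and was called when the difference also exceeded 2-fold. Of all genes tested, 30.5% passed higher and 31.9% passed lower at P7, while 8.1% were called higher and 13.3% lower, together 21.4%, with a median log2 difference of -0.01. These shares are the background for each group of genes. With a common biological coefficient of variation of 0.129, changes well under 2-fold passed, so the counts of passed genes are given with the median change of the group.

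The total counts per library ranged from 13430229 to 14852051 at P1 and from 13866009 to 14227633 at P7. Replicate 1 of P7 stood apart from the others of its group, at a chi-square of 32 to 42.5 per degree of freedom against them, where the pairs of P1 libraries had 4.04 to 14.4. Several results that rest on it are given with and without it. Markers of 4 of 6 other cell types summed to more at P1 than at P3. The summed level of the 28 keratinocyte markers was 176 to 718.9 CPM at P1, 63.24 to 77.97 CPM at P3 and 85.88 to 108.3 CPM at P7, with 7 of 28 at 0 at P7, among them Krt14 and Krt17. The 36 skeletal muscle markers summed to 361.6 to 568.7, 92.33 to 111.2 and 67.55 to 139 CPM at the same passages, with 8 at 0 at P7, Myod1 and Myog included. The 39 macrophage markers summed to 570.4 to 853.6, 86.21 to 114.5 and 128.5 to 152.3 CPM, with 3 at 0 at P7 that were also at 0 at P1, and the 21 endothelial markers to 541.8 to 639.8, 400.9 to 464.2 and 303.9 to 397.8 CPM, with Cldn5 and Sox17 at 0. The other lists did not follow, since the 20 Schwann cell and melanocyte markers summed to 391 to 423.6, 442.7 to 485.8 and 428.9 to 793.8 CPM, with Dct and Tyr among the 3 at 0 at P7, and the 20 adipocyte and pericyte markers to 269.8 to 380.4, 242.4 to 389.6 and 182.4 to 268.6 CPM, with 6 at 0, Adipoq among them. The 24 fibroblast markers summed to 7638 to 8214 CPM at P1 and 11080 to 12410 CPM at P7, and none was at 0. In such bulk libraries fewer cells of a type and less RNA per cell cannot be told apart, so for genes named as also made by keratinocytes, muscle, macrophages or vessels the P7 minus P3 difference is given, after part or most of that fall. Markers of macrophages, endothelium and muscle went on falling after P3 by their median, though the macrophage sum did not, since sums follow the most abundant members. At P7 against P3 the median log2 difference was -1.37 for macrophage, -2.66 for endothelial, -2.47 for muscle and -0.19 for keratinocyte markers. At P7 against P1 these medians were -4.76, -4.86, -5.4 and -3.82. The part of the other cell types in those results was not tested.

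The leading genes were taken from called genes with an average log2 CPM of at least 3, no overlap between groups and no place in a list set aside. Of these, Galnt18, Pappa and Cnn1 were among those that rose most, and Cd36, Saa3, Ccl6 and Mmp12 among those that fell most. Galnt18, an enzyme that starts O-linked sugar chains on proteins, at chr7:111471656-111780067 on mm10, read 7.53, 11, 7.04 and 14.9 CPM at P1 and 260, 321, 247 and 337 CPM at P7. The groups lay far apart, with a log2 fold change of 4.84 ± 0.33, adjusted p = 2.69e-10. Pappa, a protease that frees insulin-like growth factors by cutting their binding proteins, at chr4:65124174-65357509, read 56.6, 51.3, 64.9 and 63.6 CPM at P1 and 393, 491, 569.5 and 623 CPM at P7, and no library of one group reached the other (log2 fold change of 3.13 ± 0.17, adjusted p = 9.67e-12). Cnn1, or calponin, an actin-binding protein of smooth muscle and myofibroblasts at chr9:22099221-22109221, read 14, 16.9, 9.91 and 14.1 CPM at P1 and 188, 273, 189.8 and 153 CPM at P7. It was already high at P3, with a mean of 79 CPM, and rose again from P3 to P7 by 1.35 on the log2 scale.

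The other leading genes that rose were Rgs8 (4.23), a brake on G protein signalling, Prl2c2 (4.04), a prolactin family hormone also called proliferin whose counts are uncertain because of near-identical copies, Pde8b (3.36), which breaks down cyclic AMP, C1qtnf3 (3.58), a secreted C1q/TNF-related protein, and Cxcl14 (3.55), a chemokine. Tmem151a (3.18) and B3galt2 (3.59), a galactosyltransferase, completed them with Cdkn2a and Ptgs2. For B3galt2, 26.2% of the exonic bases are shared with Cdc73 on the opposite strand, so part of its counts may be of that gene. Each of these genes also rose from P3 to P7.

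Of the genes that fell most, Cd36 is a fatty acid receptor, Saa3 an acute phase protein, Ccl6 a chemokine and Mmp12 the macrophage elastase. Cd36, at chr5:17781690-17888959, read 65.1, 71.2, 63.9 and 47.2 CPM at P1, while 3 of the 4 P7 libraries had no read and replicate 1 had a single read. The ratio of the summed counts, 3695 to 1, was 3.23e+03 with a 95% counting interval of 579 to 1.28e+05, and the mean at P3 was 3.77 CPM. Saa3, at chr7:46711998-46719615, read 614, 412, 731 and 249 CPM at P1 and 1.15, 0.0772, 0.231 and 0 CPM at P7, a log2 fold change of -10.40 ± 0.47, adjusted p = 1.41e-12. Its P1 libraries spread widely, with replicate 4 lowest, yet every one lay far above every P7 library. Cd36 was lowest in replicate 4 of P1 as well. That library had the lowest sum of macrophage markers at P1, 570.4 CPM, and the highest of endothelial markers, 639.8 CPM. The part of macrophages or vessels in the falls of Cd36 and Saa3 was not tested. Ccl6, Mmp12, Stab1, Adam8 and Lcp1, which macrophages also make, fell with the macrophage markers between P1 and P3, and their P7 minus P3 differences were -3.35, -3.51, -3.97, -1.18 and -2.23, all passed. Among genes that fell were also H19 (-5.96), an imprinted long non-coding RNA, Sfrp2 (-5.06), a secreted modulator of Wnt signals, Cilp (-4.99), a cartilage matrix protein, Cbln1 (-7.64), a secreted protein of the C1q family, and Slco4a1 (-5.01), an organic anion transporter.

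**Figure D1:**
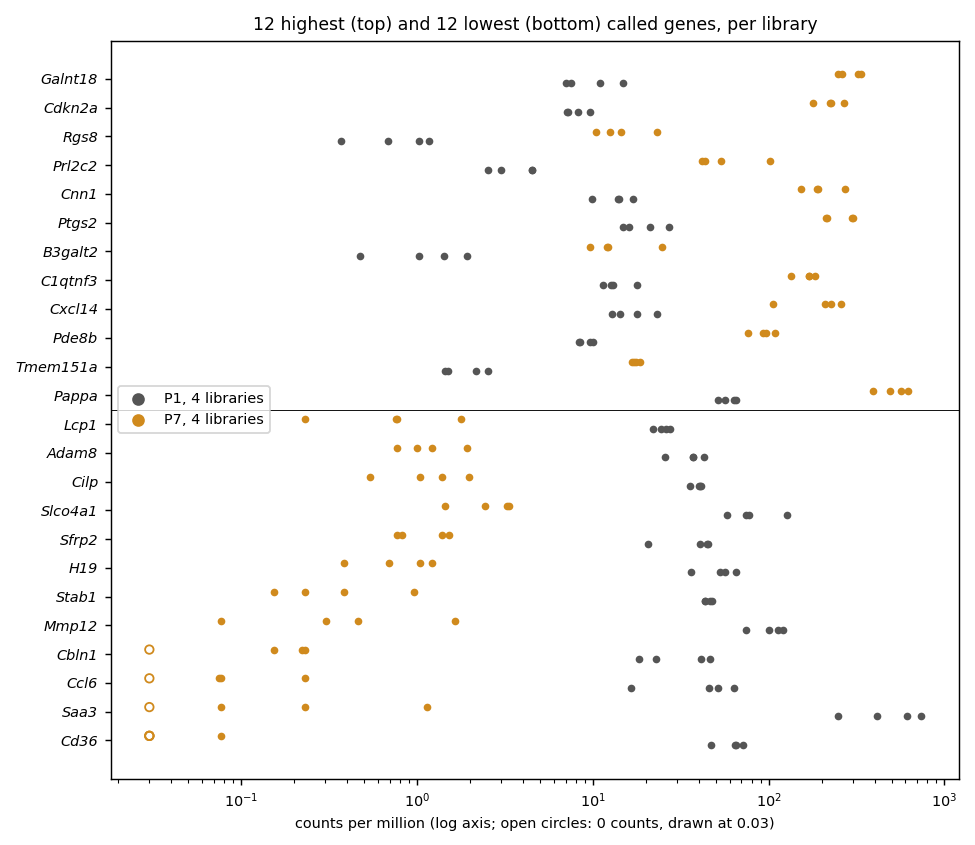
CPM per library (log axis) of the 12 called genes with the highest and the 12 with the lowest log2 fold change, P1 and P7 libraries as separate points and libraries without a read as open circles at the left edge. In each of the 24 genes the P1 and P7 points do not overlap, which was part of the rule that chose them.

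**Figure D2:**
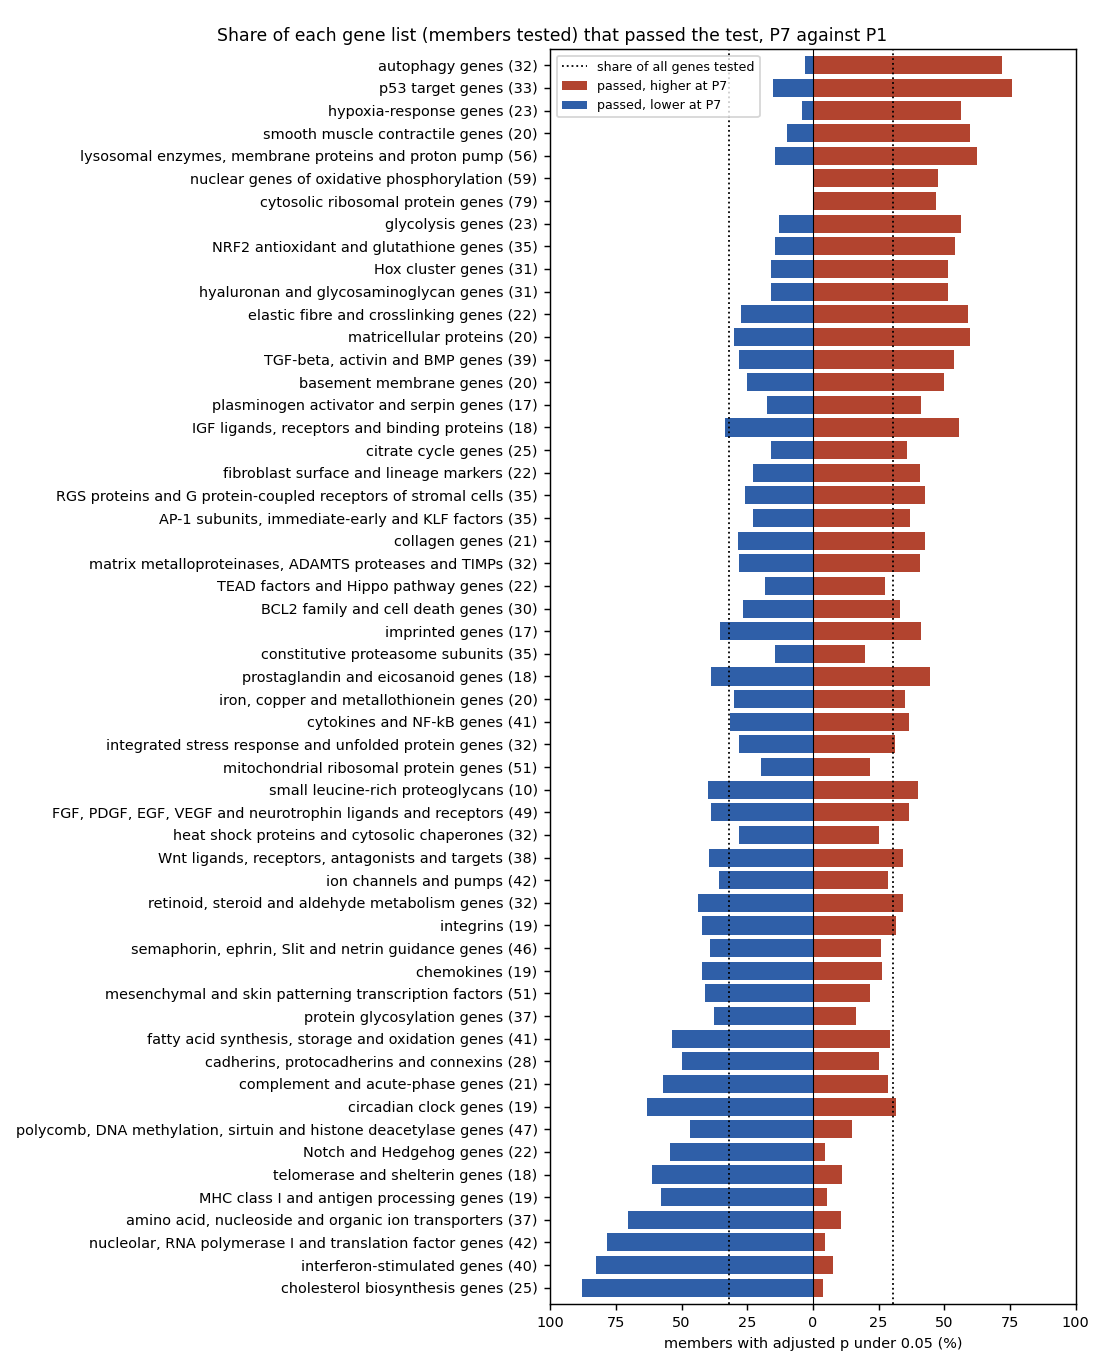
Percent of the tested genes of each pathway list that passed higher or lower at P7, with dotted lines at the shares of all genes tested (30.5% and 31.9%). Autophagy, p53 targets and lysosome lie far past the line on the higher side, and cholesterol synthesis, interferon-stimulated genes and ribosome biogenesis on the lower side.

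Collagens moved in both directions, with chains of types I, III and V among those that rose and chains of types V and VI among those that fell. Of the collagen genes, 9 of 21 tested genes passed higher and 6 lower (5 and 3 called), with a median log2 difference of 0.07, which ranged from 0.01 without replicate 1 of P7 to 0.12 without replicate 3 of P7, against shares of 30.5% and 31.9% over all genes. Col3a1, the collagen of soft and healing tissue, read 1966, 1731, 2227 and 1320 CPM at P1 and 8094, 6223, 6878 and 7799 CPM at P7, so that the lowest P7 library was over 2 times the highest of P1 (log2 fold change of 2.0 ± 0.14, adjusted p = 3.14e-10). Col1a1, the main chain of type I collagen, read 9324, 8585, 9139 and 8941 CPM at P1 and 12420, 13170, 12520 and 13710 CPM at P7. Its groups did not overlap either, but the difference was smaller, with a log2 fold change of 0.53 ± 0.11, adjusted p = 4.52e-04, and most of it was present at P3 (0.50). Its partner chain Col1a2 (0.69) passed higher. Col5a1 (1.53), Col5a2 (1.25) and Col12a1 (1.08), which regulate or decorate these fibrils, were called higher with Col28a1 (2.62). Col6a3, a chain of the beaded microfibrils of type VI collagen, read 5582, 5099, 6123 and 5533 CPM at P1 and 1636, 2505, 2528 and 3281 CPM at P7 and fell, with no overlap (log2 fold change of -1.17 ± 0.15, adjusted p = 1.73e-06). Col5a3 (-1.25), also a chain of type V, and Col6a6 were the other collagens called lower, and Col6a6, with 133 reads at P1 and none at P7, was at least 38.7-fold lower against a floor of 3 counts over the group. The number passed lower was 6 with all libraries, 3 without replicate 2 of P1, replicate 1 of P7 or replicate 3 of P7, and 9 without replicate 4 of P7. The summed level of the listed collagens was 33590, 31590, 34520 and 32330 CPM at P1 and 48330, 50160, 51090 and 54420 CPM at P7, higher in all P7 libraries.

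Basement membranes, the sheets under epithelia and around vessels, moved in both directions. Of their genes, 10 of 20 tested genes passed higher and 5 lower (4 and 4 called), with a median log2 difference of 0.32. Without replicate 1 of P7 the median was 0.44 and 13 passed higher. The number passed higher was 7 without replicate 1 of P1, replicate 3 of P1 or replicate 4 of P7. Col4a5, a chain of type IV collagen, read 34.6, 41, 33.8 and 51.4 CPM at P1 and 184, 249.8, 266 and 243 CPM at P7, and Col4a1 rose less (0.71) while Nid1 (0.68) passed with overlapping groups, since replicate 1 of P7 read as P1 did. The laminin chains Lama3 (-7.49) and Lamb3 (-5.45), which keratinocytes make, were highest in replicate 3 of P1, as the keratinocyte markers were. Their P7 minus P3 differences of 0.40 and -0.93 did not pass. Lama1 was called higher (2.36) but lay below its P3 level.

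Elastic fibres, which give skin its recoil, are made of elastin on a scaffold of fibrillins and are cross-linked by lysyl oxidases. Of these genes, 13 of 22 tested genes passed higher and 6 lower (6 and 3 called), with a median log2 difference of 0.55. Elastin itself fell: Eln read 28.9, 24.3, 34.6 and 22.1 CPM at P1 and 4.5, 1.93, 2.38 and 7.27 CPM at P7, without overlap (log2 fold change of -2.76 ± 0.43, adjusted p = 1.49e-05). The cross-linking enzyme Loxl2 read 235, 236, 287 and 249.9 CPM at P1 and 1184, 1352, 1344 and 1545 CPM at P7, and every P7 library was over 4 times any P1 library (log2 fold change of 2.43 ± 0.11, adjusted p = 1.41e-12). Lox (1.25), the TGF-β binding proteins Ltbp3 (1.40) and Ltbp4 (1.27), and the fibulins Fbln5 (1.22) and Efemp1 (1.75) were called higher too, while Ltbp2 (-1.54) and Mfap4 (-1.5) were called lower. Of the other lysyl oxidases, Loxl3 (0.80) passed higher, while Loxl1 (-0.14) and Loxl4 (-0.01) did not pass.

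Small leucine-rich proteoglycans bind collagen fibrils and set their width, and they too divided. Dcn, or decorin, read 1036, 885, 1229 and 846 CPM at P1 and 404, 172, 328 and 234 CPM at P7, with all P7 libraries under all P1 libraries (log2 fold change of -1.81 ± 0.19, adjusted p = 1.30e-07). Lumican, Lum (-1.96), and Ogn (-2.12), or osteoglycin, were called lower. Prelp, a proteoglycan that anchors basement membranes, moved the other way, with 76.4, 94.9, 53.4 and 98.5 CPM at P1 and 612, 682, 737 and 762 CPM at P7 (log2 fold change of 3.11 ± 0.20, adjusted p = 1.42e-10), and Podn (1.84) and Fmod (1.54) were called higher with it. In all, 4 of 10 passed higher and 4 lower.

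Adhesive glycoproteins and matricellular proteins, which carry signals between matrix and cell, held some of the largest gains among abundant transcripts. Fn1, or fibronectin, at chr1:71585473-71653280, read 3486, 3693, 3547 and 3796 CPM at P1 and 11360, 20410, 20620 and 21540 CPM at P7. Replicate 1 was well below the other P7 libraries, yet far above the highest P1 library (log2 fold change of 2.35 ± 0.15, adjusted p = 1.20e-10). Thbs1, thrombospondin 1, which can free TGF-β from its latent complex, read 6865, 7864, 6014 and 8279 CPM at P1 and 16510, 20220, 21240 and 18550 CPM at P7 (log2 fold change of 1.40 ± 0.11, adjusted p = 1.84e-09). Ccn2, a matricellular protein induced by TGF-β and by the Hippo pathway's YAP, read 269, 414, 179 and 377 CPM at P1 and 973, 1408, 905 and 1107 CPM at P7 and did not overlap either (log2 fold change of 1.82 ± 0.21, adjusted p = 2.88e-07). Postn (1.66), Spp1 (2.12), Sparc (1.54) and Mgp (1.19) were also called higher, while Tnn (-3.51), Sparcl1 (-3.89) and Thbs4 (-4.93) were called lower. For Sparcl1, 20.8% of the exonic bases overlap another gene. Of the list, 12 of 20 tested genes passed higher and 6 lower (8 and 5 called), with a median log2 difference of 0.50, and its summed level was 33600, 33360, 35600 and 32040 CPM at P1 and 58280, 72410, 74210 and 70500 CPM at P7. Without replicate 1 of P7 the median was 0.59.

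Among matrix proteases and their inhibitors, stromelysin fell and all 3 TIMPs tested rose. Mmp3, or stromelysin 1, at chr9:7445822-7455975, read 774, 679.7, 1083 and 633 CPM at P1 and 55.5, 59.3, 39.7 and 59.5 CPM at P7, and the P7 libraries lay more than 10 times below the P1 libraries (log2 fold change of -3.89 ± 0.22, adjusted p = 2.83e-11). Most of this fall had taken place at P3, at a mean of 50 CPM, and the P7 minus P3 difference was 0.10. Timp3, an inhibitor of metalloproteases that stays bound to the matrix, read 367, 429.9, 349.8 and 547 CPM at P1 and 2136, 2828, 2772 and 3068 CPM at P7 and rose in every library (log2 fold change of 2.67 ± 0.15, adjusted p = 2.15e-11), and again from P3 to P7 (1.04). Timp1 (1.14) and Timp2 (1.61) were called higher as well. The aggrecan- and versican-cutting ADAMTS enzymes included Adamts1 (1.52) and Adamts5 (2.02), called higher, and Adamts15 (-3.15), called lower. Reads summed over the P1 and then the P7 libraries were 2534 and 4373 for Adamts4, 989 and 488 for Adamts9, and 65 and 9 for Adamts20. Mmp2, the gelatinase of resting fibroblasts, read 749, 637, 894 and 584 CPM at P1 and 741, 669, 683 and 717 CPM at P7 and the groups overlapped (log2 fold change of -0.03 ± 0.12, adjusted p = 0.859). In sum, 13 of 32 tested genes passed higher and 9 lower (7 and 7 called), with a median log2 difference of 0.23.

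The plasminogen system, which clears fibrin, had few calls. Of its genes, 7 of 17 tested genes passed higher and 3 lower (3 and 1 called), with a median log2 difference of 0.20. Thbd, thrombomodulin, which turns thrombin from clotting to anticoagulation, read 67.8, 71.7, 72.5 and 67.2 CPM at P1 and 285, 309, 369.5 and 224 CPM at P7 (log2 fold change of 2.09 ± 0.13, adjusted p = 5.79e-11). F3 (1.5), tissue factor, which starts clotting, was called higher, while Serpinb8 (-1.71) was called lower. The median of this list fell to 0.12 without replicate 4 of P1. Among enzymes and core proteins of hyaluronan and other glycosaminoglycans, 16 of 31 tested genes passed higher and 5 lower (8 and 1 called), with a median log2 difference of 0.40. Hs3st1 (2.55), a heparan sulfate sulfotransferase, the sulfatase Sulf1 (1.73) and the glypicans Gpc1 (1.47) and Gpc4 (1.72) were called higher, and Gpc3 (-1.95) lower. The hyaluronan synthase Has2 (-0.33) did not pass, except without replicate 4 of P7, at -0.49. The list's median ranged from 0.29 without replicate 1 of P1 to 0.53 without replicate 4 of P7.

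**Figure D3:**
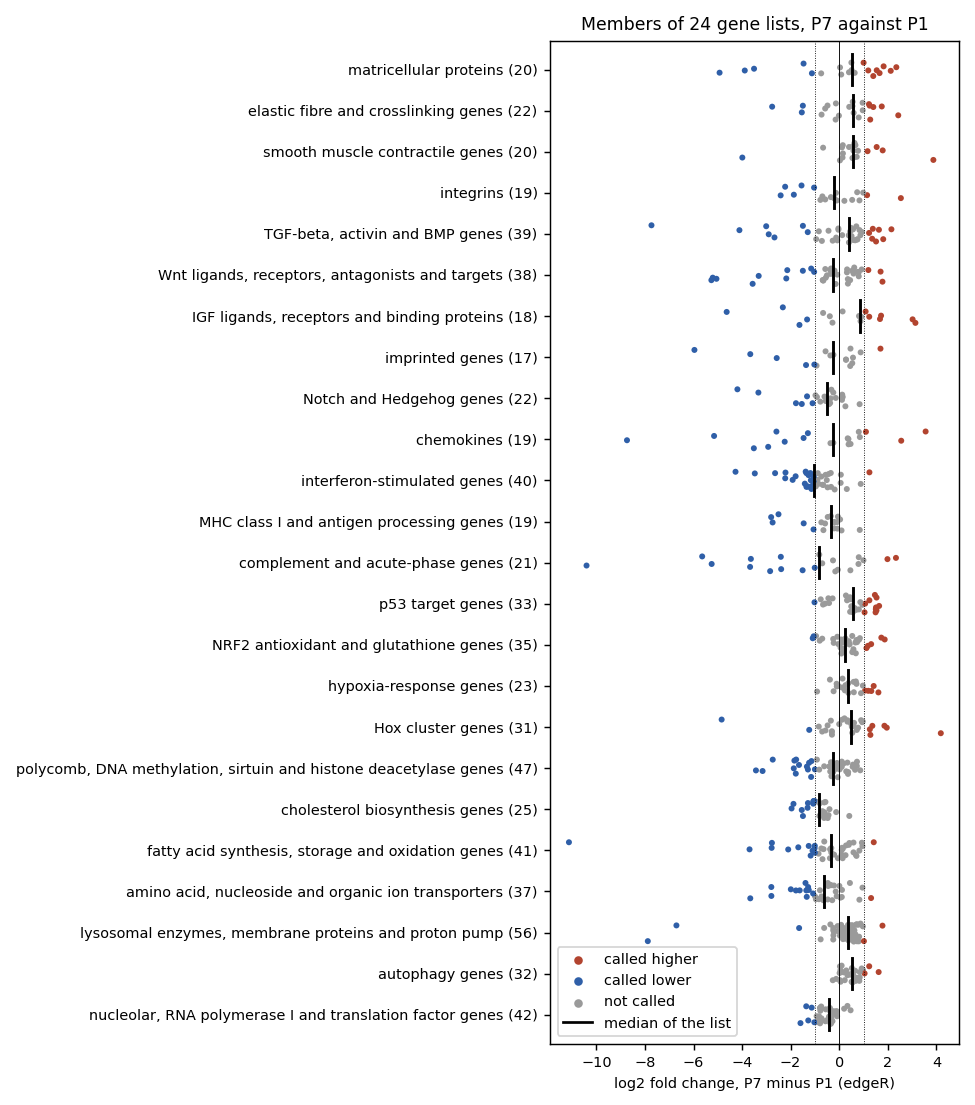
Log2 fold change of P7 against P1 for each tested gene of 24 lists, with a bar at the median of each list. The matricellular and elastic fibre lists hold genes far to either side of 0, while members of the autophagy list lie between -0.27 and 1.62.

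Most contractile genes of the myofibroblast rose, the majority by less than 2-fold. These genes encode smooth muscle actin and its partners, and serum response factor binds CArG boxes in many of their promoters. Of the list, 12 of 20 tested genes passed higher and 2 lower (4 and 1 called), with a median log2 difference of 0.56. Acta2, smooth muscle α-actin, read 1709, 2154, 1509 and 2364 CPM at P1 and 2757, 3760, 2596 and 2832 CPM at P7, without overlap, a log2 fold change of 0.63 ± 0.16, adjusted p = 0.00205. Tagln, or transgelin, read 637, 766, 533 and 810.5 CPM at P1 and 2446, 2838, 2066 and 2131 CPM at P7, a log2 fold change of 1.79 ± 0.15, adjusted p = 6.42e-09, but 85.8% of its exonic bases are shared with Pcsk7 on the opposite strand, so its counts are uncertain. Myl9, a myosin light chain, was called higher (1.16), and Cnn1 led the list. Des, desmin, which is also a muscle marker, fell (-3.99), with a P7 minus P3 difference of -1.25. A CArG box was present in the promoters of 3 of the 16 members with a RefSeq promoter, or 18.8%, against 1.62% of all 10643 tested genes with one. These promoters reach from 250 bases before to 50 after the start. The box of Myl9 is shown in capitals because the gene was called and the box lies upstream of its start, at chr2:156775258-156775357 on the plus strand of GRCm38.p6, the assembly of mm10:
Myl9: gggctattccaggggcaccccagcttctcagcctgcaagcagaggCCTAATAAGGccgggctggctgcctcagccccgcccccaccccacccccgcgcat

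Integrins, the receptors that tie cells to this matrix, moved in both directions. Of their genes, 6 of 19 tested genes passed higher and 8 lower (2 and 5 called), with a median log2 difference of -0.20, which ranged from -0.34 without replicate 4 of P1 to -0.13 without replicate 3 of P1. Itga11, the collagen receptor of fibroblasts, read 174, 168, 177 and 205 CPM at P1 and 766, 1055, 1080 and 1298 CPM at P7, and its groups did not overlap (log2 fold change of 2.54 ± 0.17, adjusted p = 1.80e-10). Itga5 (0.83) and Itgb1 (0.98), which together bind fibronectin, passed higher. Itga2 (-2.23), Itga3 (-1.87), Itga6 (-1.55) and Itgb4 (-2.41), which bind collagen and laminin and are also made by keratinocytes, were called lower. Their P7 minus P3 differences were -1.78, -0.20, -1.15 and -0.56, of which those of Itga3 and Itgb4 did not pass.

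Cell-cell junction genes leaned lower. Of cadherin, protocadherin and connexin genes, 7 of 28 tested genes passed higher and 14 lower (4 and 9 called), with a median log2 difference of -0.31. Cdh4, or R-cadherin, read 8.84, 8.36, 9.02 and 12.1 CPM at P1 and 0.305, 0.0772, 0.692 and 1.19 CPM at P7, without overlap (log2 fold change of -4.05 ± 0.44, adjusted p = 1.47e-07), and continued to fall after P3 (-1.42). The vessel genes Gja5, Gja4 and Cdh5 (-5.12) were called lower, and the P7 minus P3 difference of each passed too, at -2.71 for Cdh5. Gja5, with 123 reads at P1 and none at P7, was at least 35.8-fold lower against the same floor of 3 counts, and Gja4 fell from 100 reads over the P1 libraries to 1 over those of P7, by a factor of 87.4 (95% counting interval of 15.3 to 3.49e+03). Gjb2 (2.52), connexin 26, and Cdh3 (1.85) were called higher. The number called higher was 4 with all libraries and 2 without replicate 4 of P7. Axon guidance genes, which in skin steer nerves and vessels, were mixed, with 12 of 46 tested genes passed higher and 18 lower (6 and 10 called), with a median log2 difference of -0.03, which became -0.18 without replicate 4 of P7. Ntn4 (2.47), Slit1 (2.40) and the semaphorin receptor Nrp1 (1.43) were called higher, and Sema3d (-4.10), Robo2 (-2.56) and Ntn1 (-2.0) lower.

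In TGF-β and BMP signalling, Bmp2, Bmp3, Bmp4 and Bmp7 fell, and of the secreted BMP antagonists Grem1 and Chrd passed higher and Nog lower. BMPs signal through SMAD proteins to genes such as Id2, and are held in check by the secreted proteins gremlin, chordin and noggin. Bmp4 read 6.71, 7.54, 5.2 and 10.9 CPM at P1 and 0.611, 0.617, 1.61 and 1.19 CPM at P7 (log2 fold change of -2.90 ± 0.44, adjusted p = 1.06e-05), and Bmp2 (-3.01), Bmp3 and Bmp7 were called lower with it. Bmp3 fell from 68 reads over the P1 libraries to 3 over those of P7, by a factor of 19.8 (95% counting interval of 6.5 to 98.4). Bmp7, with 110 reads at P1 and none at P7, was at least 32-fold lower against the floor of 3 counts, and its P7 minus P3 difference did not pass. The related ligand Gdf10 (-2.67) was called lower, Bmp6 (-0.27) did not pass, and Gdf6 (1.23), also of the BMP branch, was called higher. The antagonist Grem1, gremlin, read 271, 297, 305 and 347 CPM at P1 and 835, 867, 1116 and 965 CPM at P7, and every P7 library lay above every P1 library (log2 fold change of 1.63 ± 0.10, adjusted p = 4.82e-11). Chrd (2.15) and Fst (1.81), chordin and the activin antagonist follistatin, were called higher, and noggin, Nog (-0.84), passed lower with all libraries but not in 6 of the 8 fits that left out a library, at -0.70 to -0.83. Inhba, which encodes activin A, rose (1.51), and Tgfb1 (-0.08) did not pass. Downstream, Id2 (-1.5) was called lower and Id4 (1.38) higher, while Id1 (-0.04) did not pass. Over the list, 21 of 39 tested genes passed higher and 11 lower (7 and 7 called), with a median log2 difference of 0.40.

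Wnt signalling keeps several skin niches active, and its negative feedback genes Axin2, Notum and Nkd1 are widely read as a sign of its activity. Axin2 read 9.86, 9.18, 11.6 and 12.2 CPM at P1 and 1.76, 2.08, 1.84 and 4.01 CPM at P7, and the P7 libraries lay below all P1 libraries (log2 fold change of -2.14 ± 0.25, adjusted p = 4.99e-07). Notum (-5.26), the enhancer of Wnt signals Rspo1 (-5.21), the ligands Wnt10a (-3.57) and Wnt16 (-3.32), and the transcription factors Lef1 (-2.18) and Tcf7 (-1.5) were called lower. Wnt4 (1.78), Wnt11 (1.70) and the inhibitor Dkk2 (1.20) were called higher. In the list as a whole, 13 of 38 tested genes passed higher and 15 lower (3 and 10 called), with a median log2 difference of -0.27, which was -0.15 without replicate 4 of P1. The P7 minus P3 differences of Axin2, Lef1 and Wnt16 were 0.65, -1.56 and -1.17, and that of Axin2 did not pass.

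Insulin-like growth factor (IGF) genes changed in their ligand and in the proteins that hold it. Igf2, a growth factor of the fetus that is imprinted, at chr7:142650768-142666816, read 32.1, 36.4, 25.4 and 46.9 CPM at P1 and 1.22, 1.39, 1.84 and 1.19 CPM at P7, with no overlap and a log2 fold change of -4.63 ± 0.26, adjusted p = 1.73e-11. Igfbp2, which binds IGFs in the medium, read 25.1, 41.2, 19.2 and 52.1 CPM at P1 and 249.6, 311, 238 and 318 CPM at P7 (log2 fold change of 3.02 ± 0.39, adjusted p = 1.50e-06). Igfbp5 (1.68), Igfbp6 (1.72) and Igfbp7 (1.08) were called higher as was Pappa, whereas Igfbp3 (-2.32) was called lower. Both receptors, Igf1r (0.85) and Igf2r (0.91), passed higher, and Igf1 (-0.39) did not pass, though it did at -0.48 without replicate 4 of P1 and at -0.50 without replicate 3 of P7. The adaptor Irs2 (-1.64) was called lower. Of 18 genes, 10 passed higher and 6 lower, and their summed level was 2191, 2096, 2474 and 2395 CPM at P1 and 4627, 5831, 5368 and 6221 CPM at P7.

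Of other imprinted genes, which are read from a single parental copy, H19 read 56.2, 52.8, 36.3 and 65.5 CPM at P1 and 1.22, 0.386, 0.692 and 1.04 CPM at P7. The fall of H19, at chr7:142575530-142578146, and of Igf2, neighbours on chromosome 7 that share an enhancer, was under way at P3, at -2.68 and -2.75 on the log2 scale against P1. The tested skeletal muscle markers had a median of -2.96 at P3 against P1. At P1 the sum of these markers, Igf2 and H19 were each highest in replicate 4 and lowest in replicate 3. The part of muscle cells in the falls of H19 and Igf2 was not tested. Slc38a4 (-3.66), Plagl1 (-2.58), Peg10 (-1.37) and Peg3 (-1.03) were called lower and Meg3 (1.70) higher. Meg3 shares 32.9% of its exonic bases with other transcripts. The list had 7 genes passed higher and 6 lower of 17, and its median of -0.24 was 0.00 without replicate 4 of P1 and -0.05 without replicate 4 of P7.

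Growth factors and their receptors moved in both directions. Over the list, 18 of 49 tested genes passed higher and 19 lower (12 and 11 called), with a median log2 difference of -0.08, which ranged from -0.18 without replicate 4 of P7 to 0.06 without replicate 3 of P7. Fgf16 (2.94), pleiotrophin Ptn (2.07), the EGF receptor ligands Ereg (2.06) and Hbegf (1.53), the neurotrophin Bdnf (1.80) and Pdgfd (1.73) were called higher. Mdk, midkine, read 2.81, 3.53, 2.39 and 1.98 CPM at P1 and 0.382, 1, 0.692 and 0.0742 CPM at P7 and fell (log2 fold change of -2.31 ± 0.40, adjusted p = 5.45e-05), and Pdgfra, the receptor that marks fibroblasts, read 636, 579, 756 and 469.8 CPM at P1 and 303, 254, 349.8 and 229.5 CPM at P7 (log2 fold change of -1.10 ± 0.15, adjusted p = 3.10e-06). The vessel genes Kdr (-3.09) and Angpt2 (-3.61) were called lower, with P7 minus P3 differences of -1.84 and -1.14, both passed. Notch and Hedgehog genes leaned lower, with 1 of 22 tested genes passed higher and 12 lower (0 and 6 called), with a median log2 difference of -0.49. Hhip (-4.19) and Jag2 (-3.33) were called lower, Ptch1 (-0.98), a target and receptor of Hedgehog, passed lower, and Notch3 (0.84) was the member that passed higher, though at 0.62 without replicate 4 of P7 it did not pass.

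The Hippo pathway, whose co-activators YAP and TAZ bind TEAD factors and respond to cell shape, changed little. Of its genes, 6 of 22 tested genes passed higher and 4 lower (2 and 1 called), with a median log2 difference of 0.06, which ranged from 0.05 without replicate 1 of P1 to 0.16 without replicate 1 of P7. The targets Ankrd1 (1.28 ± 0.15, adjusted p = 7.16e-07) and Amotl2 (1.16 ± 0.11, adjusted p = 1.64e-08) were called higher, as Ccn2 was, and the factor Tead4 (-1.79 ± 0.28, adjusted p = 1.28e-05) lower. Ankrd1 read 10.8, 11.8, 7.93 and 10.1 CPM at P1 and 22.7, 28.8, 24.5 and 22.6 CPM at P7. The co-activator genes Yap1 (0.47) and Wwtr1 (0.72) passed higher, and Tead1 (0.12) did not pass. The letters GGAATG on either strand, to which TEAD factors bind, were in the promoters of 12 of 19 members (63.2%) against 14.7% of all genes. The stretches of the called targets are shown with the match in capitals, for Amotl2 at chr9:102717694-102717789 on the plus strand and for Ankrd1 at chr19:36119917-36120012 on the minus strand:
Amotl2: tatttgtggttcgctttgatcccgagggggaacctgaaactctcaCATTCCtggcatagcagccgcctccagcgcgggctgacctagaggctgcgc
Ankrd1: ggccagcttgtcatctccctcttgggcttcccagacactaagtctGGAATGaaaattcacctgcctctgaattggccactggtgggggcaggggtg

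Receptors of the G protein family and their regulators divided by gene. Over the list, 15 of 35 tested genes passed higher and 9 lower (8 and 7 called), with a median log2 difference of 0.24. Rgs4, which shortens G protein signals, read 5.48, 5.5, 5.81 and 7.86 CPM at P1 and 36.3, 32.6, 35.4 and 44.8 CPM at P7 (log2 fold change of 2.59 ± 0.18, adjusted p = 3.21e-10), and Rgs16 (1.65) was called higher with the thrombin receptor F2r (1.06) and the bradykinin receptor Bdkrb2 (1.30). Oxtr (-3.52), the oxytocin receptor, S1pr1 (-2.83) and Rgs2 (-2.35) were called lower. Among ion channels, 12 of 42 tested genes passed higher and 15 lower (4 and 7 called), with a median log2 difference of -0.05, which ranged from -0.18 without replicate 4 of P7 to 0.04 without replicate 1 of P7. Scn3a, a neuronal sodium channel, had 935 reads over the P1 libraries and none over those of P7, at least 272-fold lower against a floor of 3 counts over the group. Kcnma1 (1.70), the large potassium channel, and Cacna1g (1.52) were called higher.

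Inflammatory genes did not move in one direction. Chemokines, which draw leukocytes, had 5 of 19 tested genes passed higher and 8 lower (3 and 8 called), with a median log2 difference of -0.24, which ranged from -0.32 without replicate 1 of P1 to -0.13 without replicate 3 of P1. Against P1 the median was -1.12 at P3 and -0.56 at P5, and the median of P7 minus P3 was 0.45. The summed level of the 29 listed chemokines was 1356 to 2062 CPM at P1 and 689.1 to 897.3 CPM at P3. At P7 the sum was 1500 to 2070 CPM, above P3 and overlapping P1. Cxcl14 read 14.2, 23.3, 17.9 and 12.8 CPM at P1 and 226, 259, 209 and 106 CPM at P7 (log2 fold change of 3.55 ± 0.27, adjusted p = 1.09e-09), and Cxcl12, which holds stem cells and leukocytes in place, read 575, 517, 536 and 343 CPM at P1 and 99.8, 68.3, 94.4 and 65.5 CPM at P7. The P7 libraries of Cxcl12 all lay below those of P1 (log2 fold change of -2.59 ± 0.22, adjusted p = 5.15e-09). Cxcl3 (2.55) was called higher, and Cx3cl1 (1.10), for which 42.2% of exonic bases overlap another gene, as well. Cxcl10 (-2.25) and Ccl11 (-1.47) were called lower, while Cxcl1 (0.80) did not pass. Without replicate 3 of P1 or replicate 4 of P7, Cxcl1 passed at 1.27 and 1.01, and with no filter on low counts it passed at 0.81. Ccl2 (0.35), the main attractant of monocytes, passed with all libraries and in 2 of the 8 fits that left out a library, with differences of 0.25 to 0.37 in the others. It did not pass either with at least 10 counts in every library (0.32) or with TMM factors from which cell cycle genes and markers of other cell types were left out (0.33).

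Cytokines and NF-κB genes had 15 of 41 tested genes passed higher and 13 lower (9 and 4 called), with a median log2 difference of 0.03. Il6, a main cytokine of senescent cells, read 2.12, 2.58, 4.38 and 1.24 CPM at P1 and 16.1, 9.64, 13.6 and 8.31 CPM at P7, and rose (log2 fold change of 2.21 ± 0.36, adjusted p = 2.55e-05). Il11 (2.34), Tnfsf15 (3.27), the adhesion molecule Vcam1 (1.97) and the bone-protecting decoy receptor Tnfrsf11b (2.56) were called higher. Il1rn (-2.69), which blocks interleukin 1, Il33 (-1.75) and Icam1 (-1.10) were called lower, and the feedback inhibitors Nfkbia (-0.95) and Tnfaip3 (-0.77) passed lower. The subunits Nfkb1 (-0.02) and Relb (-0.06) did not pass. Tnfrsf11b read 32.3, 33.3, 30.7 and 39.2 CPM at P1 and 207, 159, 209 and 222 CPM at P7, without overlap.

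Interferon-stimulated genes fell over most of the list. These genes are switched on by type I interferon, and their products sense or block viruses. Of 40 tested genes, 33 passed lower and 3 higher, against 31.9% and 30.5% of all genes, and 21 were called lower, with a median of -1.05. The median ranged from -1.14 without replicate 4 of P1 to -0.91 without replicate 3 of P1, where 17 were called lower. The summed level was 1291, 1251, 1390 and 1053 CPM at P1 and 1162, 961, 974 and 900.1 CPM at P7. These sums overlapped, since replicate 1 of P7 lay above replicate 4 of P1. Oasl2 read 24, 19.3, 24.5 and 14.1 CPM at P1 and 4.28, 3.09, 2.15 and 3.56 CPM at P7, and all P7 libraries lay below all P1 libraries (log2 fold change of -2.64 ± 0.28, adjusted p = 1.26e-07). Isg15, a ubiquitin-like protein, read 29.5, 31, 27 and 20.4 CPM at P1 and 13.8, 11, 7.76 and 9.72 CPM at P7 (log2 fold change of -1.35 ± 0.31, adjusted p = 8.99e-04). Ifi27l2a (-4.27), Ifitm1 (-3.48), Cmpk2 (-2.21), Rtp4 (-1.92), the DNA sensor Cgas (-1.42) and the factor Irf7 (-1.05) were called lower. Ifit3, in contrast, read 12.5, 11.9, 12 and 11.4 CPM at P1 and 28.2, 26.1, 23.4 and 35.3 CPM at P7 and was the member called higher (log2 fold change of 1.24 ± 0.19, adjusted p = 1.02e-05), though its counts are uncertain because of the near-identical Ifit3b. The list's median against P1 was -0.34 at P3 and -0.21 at P5, and -0.58 at P7 against P3.

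The promoters of Isg15 and Ifit3 are shown because these genes moved in opposite directions and both carry the letters GAAANNGAA, the core of the element that interferon factors bind. The share of promoters with it is not given, since 29 of the 40 tested members had a RefSeq promoter, under 80%. The stretches lie at chr4:156200831-156200929 on the minus strand and at chr19:34583382-34583480 on the plus strand, every match on either strand in capitals:
Isg15: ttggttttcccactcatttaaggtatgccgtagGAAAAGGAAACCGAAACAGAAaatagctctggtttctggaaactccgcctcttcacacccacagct
Ifit3: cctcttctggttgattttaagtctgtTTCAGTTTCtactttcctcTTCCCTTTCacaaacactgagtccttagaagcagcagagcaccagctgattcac

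Antigen presentation by MHC class I, which interferons also raise, fell in part. Of its genes, 1 of 19 tested genes passed higher and 11 lower (0 and 5 called), with a median log2 difference of -0.35. Psmb8, a catalytic subunit of the immunoproteasome that cuts peptides for MHC class I, read 25.7, 24.9, 32.8 and 22.1 CPM at P1 and 5.5, 2.62, 3.54 and 3.41 CPM at P7, without overlap (log2 fold change of -2.80 ± 0.22, adjusted p = 1.40e-09). Its partner Psmb9 (-2.74) and the class I regulator Nlrc5 (-1.47) were called lower with H2-K1 (-1.06) and H2-Q4 (-2.50), whose near-identical relatives make the counts uncertain. B2m (-0.08), the light chain of all class I molecules, did not pass. The standard proteasome did not follow: of 35 genes, 7 passed higher, 5 lower and none was called, with a median of -0.01, and the number passed lower was 1 to 3 in 7 of the 8 fits that left out a library.

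By the median of the list, complement and acute phase genes fell early. Of the list, 6 of 21 tested genes passed higher and 12 lower (2 and 10 called), with a median log2 difference of -0.82. C4b, a complement component that tags surfaces, read 39.1, 39.5, 45.7 and 17.6 CPM at P1 and 3.36, 2.16, 3.38 and 2.45 CPM at P7 (log2 fold change of -3.64 ± 0.30, adjusted p = 4.55e-09), and C3, the hub of the cascade, read 21, 20.4, 31.5 and 10.4 CPM at P1 and 2.21, 3.47, 5.07 and 0.817 CPM at P7 (log2 fold change of -2.85 ± 0.37, adjusted p = 1.66e-06). In both, each P7 library lay below each P1 library. Hp (-5.25), haptoglobin, Lcn2, Cfb (-3.67), Cp (-2.41) and Lbp (-2.39) were called lower, whereas Cd55 (1.98) and Cd59a (2.33), which shield cells from complement, were called higher. The median against P1 was -0.78 at P3, -0.5 at P5 and -0.82 at P7, and the median of P7 minus P3 was -0.03. By this median the list fell between P1 and P3, when macrophage markers also fell. The summed level of the 25 listed genes was 1553 to 2631 CPM at P1 and 918.9 to 1093 CPM at P3. At P7 the sum was 1519 to 1831 CPM, above P3 and overlapping P1. Lcn2 fell from 82 reads over the P1 libraries to 1 over those of P7, by a factor of 71.7 (95% counting interval of 12.5 to 2.86e+03). For C4b and C3 the P7 minus P3 differences were -1.12 and -0.15, and that of C3 did not pass.

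Prostaglandin and leukotriene genes had 8 of 18 tested genes passed higher and 7 lower (3 and 5 called), with a median log2 difference of 0.21, which ranged from 0.13 without replicate 1 of P7 to 0.29 without replicate 4 of P7. The synthase Ptges (0.44) and cyclooxygenase 1, Ptgs1 (0.97), passed higher, Pla2g7 (1.71), which cuts oxidised phospholipids, was called higher, and Hpgd (-2.34), the enzyme that inactivates prostaglandins, was called lower. Hpgds (-5.94), which makes prostaglandin D2, fell with a P7 minus P3 difference of -2.11. The number called higher was 5 in place of 3 without replicate 3 of P1 or replicate 4 of P7.

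Targets of p53 rose over most of the list. p53 responds to DNA damage and other stress by activating genes for arrest, repair and death. Of 33 tested targets, 25 passed higher and 5 lower, with 10 and 1 called and a median of 0.58. Their summed level was 2104, 2247, 2057 and 2326 CPM at P1 and 4265, 4195, 4212 and 4299 CPM at P7, so that each P7 library lay above each P1 library. Ephx1, an epoxide hydrolase, read 120.4, 122, 117 and 154 CPM at P1 and 407, 389, 389 and 414 CPM at P7, without overlap (log2 fold change of 1.64 ± 0.10, adjusted p = 6.40e-11). Ccng1, cyclin G1, read 294, 334, 288 and 356 CPM at P1 and 913, 762, 979.5 and 930.3 CPM at P7 (log2 fold change of 1.49 ± 0.11, adjusted p = 1.08e-09). Btg2 (1.47), Plk2 (1.5), the death receptors Fas (1.24) and Tnfrsf10b (1.07), and Dcxr (1.53) were called higher, Mdm2 (0.49) passed higher, and the gene of p53 itself, Trp53 (-0.45), passed lower. Gdf15 (-1.02), a stress hormone, was called lower. At P3 and P5 the list's medians against P1 were 0.43 and 0.59, and P7 minus P3 was 0.18. Without replicate 1 of P7 the median of P7 against P1 was 0.69.

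The promoters of Cdkn1a, the gene of p21, and Ccng1 are shown as those of 2 called targets of p53, with every match to the p53 half-site in capitals. They lie at chr17:29090883-29090978 on the plus strand and chr11:40755417-40755516 on the minus strand, and the share over the list is not given, since 26 of its 33 tested members had a promoter in RefSeq, under 80%:
Cdkn1a: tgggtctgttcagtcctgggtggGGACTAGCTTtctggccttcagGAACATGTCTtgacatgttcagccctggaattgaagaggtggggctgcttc
Ccng1: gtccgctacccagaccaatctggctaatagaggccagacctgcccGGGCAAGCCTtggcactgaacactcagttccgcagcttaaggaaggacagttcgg

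The integrated stress response and the unfolded protein response, in which ATF4 and related factors raise amino acid supply and chaperones, were divided, with 10 of 32 tested genes passed higher and 9 lower (2 and 1 called), with a median log2 difference of 0.05. Ddit3 (1.27 ± 0.10, adjusted p = 1.27e-09), the factor CHOP, and Nupr1 (1.30 ± 0.15, adjusted p = 3.97e-07) were called higher, and Slc7a11 (-1.78 ± 0.18, adjusted p = 7.37e-08), the cystine importer, lower. Slc7a11 read 25.7, 24.4, 23.1 and 26.1 CPM at P1 and 4.96, 5.86, 6.92 and 11 CPM at P7. The chaperone of the endoplasmic reticulum Hspa5 (-0.38) passed lower, Atf3 (0.93) and Trib3 (0.93) passed higher, and Atf4 (0.04) did not pass. Without replicate 3 of P7, 4 genes were called higher. The letters TGATGNAA, a core to which ATF4 with a partner binds, were in 8 of 30 promoters (26.7%) against 2.77% of all genes. Nupr1 and Slc7a11 hold them and moved in opposite directions, and every match on either strand is in capitals, at chr7:126625528-126625625 on the minus strand and chr3:50443614-50443705 on the minus strand:
Nupr1: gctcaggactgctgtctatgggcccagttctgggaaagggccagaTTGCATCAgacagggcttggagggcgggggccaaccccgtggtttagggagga
Slc7a11: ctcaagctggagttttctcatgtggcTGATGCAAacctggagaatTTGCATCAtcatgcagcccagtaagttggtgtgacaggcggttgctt

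Heat shock proteins and chaperonins stayed near their P1 levels as a group, with 8 of 32 tested genes passed higher and 9 lower (1 and 0 called), with a median log2 difference of 0.00. The number passed lower was 5 without replicate 2 of P1. Hspa2, a testis-enriched member of the HSP70 family, read 7.05, 7.54, 6.84 and 6.68 CPM at P1 and 39.1, 37, 31.5 and 37.4 CPM at P7 and was the member called (log2 fold change of 2.37 ± 0.12, adjusted p = 5.94e-12). Hspa1a (-0.67), whose counts are uncertain because of its near-identical neighbour, passed lower, and Hspb1 (0.57) and Cryab (0.58) passed higher.

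Antioxidant genes leaned higher, with 19 of 35 tested genes passed higher and 5 lower (5 and 2 called), with a median log2 difference of 0.25. Many are targets of NRF2, the factor that answers oxidative stress. Sod3, the superoxide dismutase of the matrix, read 71.9, 54.2, 130.5 and 52.4 CPM at P1 and 292, 313, 299 and 225 CPM at P7 (log2 fold change of 1.87 ± 0.23, adjusted p = 7.73e-07), and Nqo1 (1.12), Osgin1 (1.31), Gstm2 (1.18) and Mgst3 (1.73) were called higher. Hmox1 (0.85) and Cat (0.68), catalase, passed higher. Of enzymes that supply glutathione and NADPH, Gsr (-1.09) and G6pdx (-1.05) were called lower and Gclc (-0.70) passed lower, while Gclm (0.42), Taldo1 (0.53) and Me1 (0.42) passed higher and Pgd (0.14) and Tkt (-0.04) did not pass. Without replicate 4 of P7, Pgd passed at 0.25. The letters TGACNNNGC, the core of the antioxidant response element, were in 11 of 29 promoters (37.9%) against 17.1% of all genes.

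Genes of the hypoxia response leaned higher as well, with 13 of 23 tested genes passed higher and 1 lower (5 and 0 called), with a median log2 difference of 0.38. Hypoxia-inducible factor acts on them to raise glucose use and lower mitochondrial work. Pdk1, which keeps pyruvate out of mitochondria, read 11, 12.3, 13.4 and 9.59 CPM at P1 and 41.1, 32.9, 43.1 and 24.3 CPM at P7 (log2 fold change of 1.61 ± 0.19, adjusted p = 5.27e-07), and Bnip3, which directs mitochondria to autophagy, read 21.9, 26.1, 29.3 and 22.6 CPM at P1 and 90.8, 64.6, 70.4 and 41 CPM at P7 (log2 fold change of 1.42 ± 0.23, adjusted p = 3.28e-05). In neither gene did the groups overlap. P4ha1 (1.19), a subunit of collagen prolyl hydroxylase, and Ero1l (1.32), an oxidase of the endoplasmic reticulum, were called higher, while Hif1a (0.13) and Ndrg1 (-0.04) did not pass. The letters ACGTG, which that factor reads, were in 16 of 21 promoters (76.2%) against 29.1% of all genes. They also lie within the E-box CACGTG of clock factors. The promoter of Bnip3, the member with both a role in hypoxia and in autophagy, is shown at chr7:138909564-138909658 on the minus strand, with the matches on both strands, which overlap there, in capitals:
Bnip3: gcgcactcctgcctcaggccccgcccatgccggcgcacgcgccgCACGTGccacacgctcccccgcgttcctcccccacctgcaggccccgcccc

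Immediate early genes, which respond to stimuli within minutes, had 13 of 35 tested genes passed higher and 8 lower (5 and 3 called), with a median log2 difference of 0.14, which ranged from 0.09 without replicate 1 of P1 to 0.22 without replicate 3 of P1. The nuclear receptors Nr4a3 (3.92 ± 0.28, adjusted p = 3.92e-10) and Nr4a1 (3.02 ± 0.21, adjusted p = 3.41e-10) were highest. Nr4a1 read 11.9, 13.8, 12.9 and 12.4 CPM at P1 and 119, 143, 94.6 and 56.9 CPM at P7, with wide spread among the P7 libraries but no overlap. Egr1 (1.27) was called higher and Fos (0.99) passed higher, whereas Klf5 (-2.30) was called lower and Jun (-0.06) and Fosl1 (-0.10) did not pass. For Fosl1, 67.7% of the exonic bases are shared with Ccdc85b on the opposite strand. TGACTCA, the element of AP-1, was found in none of 29 promoters of the list and in 4.67% of all.

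Positional genes of the HOX clusters, which record where on the body axis a fibroblast arose, had 16 of 31 tested genes passed higher and 5 lower (6 and 2 called), with a median log2 difference of 0.48, which was 0.31 without replicate 2 of P7. Hoxc12 (4.18), Hoxc13 (1.96) and Hoxa11 (1.86), of the 5′ ends of their clusters, were called higher, and Hoxd10 (-4.84) lower. For Hoxa11, 35.2% of the exonic bases are shared with antisense transcripts. Hoxc13 read 2.47, 5.1, 2.39 and 3.77 CPM at P1 and 12.2, 16.8, 9.61 and 14.8 CPM at P7. The HOXB genes Hoxb5 (1.36), Hoxb8 (1.28) and Hoxb9 (1.26) were called higher. Transcription factors of mesenchyme leaned lower, with 11 of 51 tested genes passed higher and 21 lower (3 and 9 called), with a median log2 difference of -0.12, which ranged from -0.19 without replicate 3 of P7 to -0.07 without replicate 2 of P1. Alx4 (-3.63), Nfib (-2.31), Osr2 (-1.94) and Foxd1 (-1.85) were called lower, Foxf1 (2.54), Lhx9 (2.51) and Prrx2 (1.05) higher, and Twist1 (-0.42) and Runx2 (-0.38) passed lower. Clock genes had 6 of 19 tested genes passed higher and 12 lower (0 and 3 called), with a median log2 difference of -0.57, with the letters CACGTG in 5 of 17 promoters (29.4%) against 11.7% of all.

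Chromatin regulators fell in part. Of genes of Polycomb, DNA methylation, histone deacetylases and lamins, 7 of 47 tested genes passed higher and 22 lower (0 and 14 called), with a median log2 difference of -0.26, and the summed level was 3130, 3179, 2985 and 3181 CPM at P1 and 2437, 2472, 2320 and 2427 CPM at P7. Ezh2, the methyltransferase of Polycomb that silences Cdkn2a in young cells, read 37.7, 37.6, 37.1 and 38.8 CPM at P1 and 11.1, 10.7, 9.61 and 9.95 CPM at P7 (log2 fold change of -1.87 ± 0.13, adjusted p = 2.98e-10), and Lmnb1, lamin B1, whose loss is a common marker of senescence, read 92.7, 89.5, 93.7 and 92.3 CPM at P1 and 14.2, 15.4, 14.5 and 11 CPM at P7 (log2 fold change of -2.74 ± 0.14, adjusted p = 3.99e-12). No P7 library of either reached a P1 library. Dnmt1 (-1.85), which copies DNA methylation after replication, Suz12 (-1.16) and Cbx7 (-1.14) were called lower. For Cbx7, 55.2% of the exonic bases are shared with Apobec3 on the opposite strand. Ezh2, Dnmt1 and Lmnb1 are also highest in dividing cells, and the 57 genes of the G2 and M phases summed to 4883 to 5119 CPM at P1 and 1233 to 1408 CPM at P7, whose part in these falls was not tested. Kdm6b (0.72), which removes the Polycomb mark, and Hdac4 (0.86) passed higher. Telomere genes had 2 of 18 tested genes passed higher and 11 lower (0 and 4 called), with a median log2 difference of -0.46, and summed to 566, 573, 560.2 and 570.1 CPM at P1 and 401, 372, 385 and 384 CPM at P7. Dkc1 (-1.60), of the telomerase RNA complex, and the shelterin genes Terf1 (-1.32) and Tinf2 (-1.41) were called lower, and Tert (0.23) did not pass.

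Genes of cell death and survival had 10 of 30 tested genes passed higher and 8 lower (3 and 0 called), with a median log2 difference of 0.07. Bcl2l2, or BCL-W, a protector from apoptosis, read 46.4, 49.8, 52.4 and 51.7 CPM at P1 and 106, 125, 120.3 and 118 CPM at P7 and was called higher (log2 fold change of 1.23 ± 0.09, adjusted p = 1.23e-09). Mcl1 (0.40) passed higher, and Bcl2 (-0.74) passed lower.

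In metabolism the clearest fall was in cholesterol synthesis. The transcription factor SREBP2 drives these genes when the sterol content of cells is low. Of 25 tested genes, 22 passed lower, 1, Hsd17b7 (0.41), passed higher and 10 were called lower, with a median of -0.82. The summed level was 5067, 5282, 5015 and 4982 CPM at P1 and 3240, 2965, 3228 and 2269 CPM at P7, so that each P7 library lay below each P1 library and replicate 4 was lowest. Without that library 6 genes were called lower. Stard4, which carries cholesterol between membranes, read 157, 168, 161 and 163 CPM at P1 and 48.4, 37.2, 47.8 and 33 CPM at P7, without overlap (log2 fold change of -1.96 ± 0.14, adjusted p = 5.91e-10). Idi1 (-1.5 ± 0.19, adjusted p = 1.06e-06), of the isoprenoid steps, was called lower. Hmgcs1 (-0.98), an early enzyme of the pathway, and the gene of SREBP2, Srebf2 (-0.57), passed lower. The median against P1 was -0.60 at P3 and -0.51 at P5.

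Fatty acid genes leaned lower, with 12 of 41 tested genes passed higher and 22 lower (1 and 12 called), with a median log2 difference of -0.33. The genes called lower included, of synthesis and uptake, Fasn (-1.10), the fatty acid synthase, Elovl6 (-2.10), the desaturases Fads1 (-1.26) and Fads2 (-1.69), and the binding proteins Fabp4 (-3.69) and Fabp5 (-2.77). Elovl6 read 145, 151, 151 and 136 CPM at P1 and 33, 29.8, 46.5 and 26.5 CPM at P7 (log2 fold change of -2.10 ± 0.19, adjusted p = 1.17e-08). Fabp4 and Pparg (-1.02), which fat and endothelial cells also make, had P7 minus P3 differences of -0.59, which did not pass, and -0.75. Of oxidation in mitochondria, Acadvl (0.95) and Cpt2 (0.93) passed higher while Acadm (0.14) and Cpt1a (0.10) did not pass, and Fabp3 (1.42) was called higher. Without replicate 3 of P7, 3 genes were called higher in place of 1.

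Genes of glycolysis and the respiratory chain leaned higher by small amounts, in part through a single library. In glycolysis, 13 of 23 tested genes passed higher and 3 lower (0 and 1 called), with a median log2 difference of 0.33, and in the citrate cycle, 9 of 25 tested genes passed higher and 4 lower (0 and 1 called), with a median log2 difference of 0.10. Ldhb (0.97) and Pfkl (0.97) passed higher, the lactate transporter Slc16a1 (-1.21) was called lower, and so was Idh2 (-1.32), the NADP-dependent isocitrate dehydrogenase of mitochondria. Of respiratory chain genes, 28 of 59 tested genes passed higher and 0 lower (2 and 0 called), with a median log2 difference of 0.27. Their summed level was 5414, 5279, 5118 and 5046 CPM at P1 and 7434, 6651, 5851 and 5505 CPM at P7, and replicate 1 of P7 was highest. Without that library the respiratory chain median was 0.15, with 20 genes passed higher, 2 lower and none called, and the glycolysis median was 0.24 with 10 passed higher. Cox7a1 (1.07) and Ndufa6 (1.02) were the members called with all libraries, and Cox7a1 did not pass without replicate 1 of P7 (0.68), replicate 1 of P1 (0.90) or replicate 3 of P1 (1.01), while Ndufa6 was at 0.89 without replicate 1 of P7.

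Transporters of amino acids and nucleosides fell broadly. Of the list, 4 of 37 tested genes passed higher and 26 lower (1 and 12 called), with a median log2 difference of -0.65, and the summed level was 3360, 3421, 3515 and 3525 CPM at P1 and 2570, 2829, 2794 and 2744 CPM at P7, lower in all P7 libraries. Slc7a5, the importer of large neutral amino acids such as leucine, read 307, 309, 263 and 301 CPM at P1 and 129, 157, 136 and 138 CPM at P7 (log2 fold change of -1.08 ± 0.10, adjusted p = 1.26e-08), and Slc1a5 (-1.63 ± 0.16, adjusted p = 3.51e-08) imports glutamine. Slc38a4 (-3.66), Slc7a8 (-2.80) and Slc4a4 (-1.99), a bicarbonate transporter, were called lower, and Slc38a1 (1.31) was the member called higher. The median was -0.16 at P3, -0.38 at P5 and -0.65 at P7, each against P1.

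In iron and metal handling, 7 of 20 tested genes passed higher and 6 lower (2 and 4 called), with a median log2 difference of -0.09, which ranged from -0.14 without replicate 4 of P7 to -0.05 without replicate 3 of P1. The transferrin receptor Tfrc (-1.40 ± 0.14, adjusted p = 7.43e-08), which takes up iron, was called lower and the ferritin genes Fth1 (0.41) and Ftl1 (0.67), which store it, passed higher. Tfrc read 172, 199, 172 and 182 CPM at P1 and 70.5, 61.2, 79.5 and 63.6 CPM at P7. Hfe (1.22), which restrains uptake through that receptor, was called higher. Retinoid and xenobiotic genes had 11 of 32 tested genes passed higher and 14 lower (6 and 9 called), with a median log2 difference of -0.15, which ranged from -0.24 without replicate 4 of P1 to -0.06 without replicate 3 of P1. Aldh1b1 (2.24) and Aldh1a1 (1.25) were called higher, and Hsd11b1 (-2.83), which activates glucocorticoids, Rarb (-2.61) and Cyp7b1 (-2.65) lower, with Rarres2 (-4.00), whose exons share 36.9% of bases with Lrrc61. Among protein glycosylation genes, 6 of 37 tested genes passed higher and 14 lower (3 and 6 called), with a median log2 difference of -0.15, which ranged from -0.23 without replicate 4 of P7 to -0.09 without replicate 1 of P7. Besides Galnt18 the members Galnt16 (2.33) and Galnt11 (1.06) were called higher and Galnt6 (-5.37) and Galnt5 (-3.25) lower.

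Lysosomal and autophagy genes rose in most members by less than 2-fold. Lysosomes break down what autophagy delivers, and their enlargement in senescent cells underlies the β-galactosidase stain. Of 56 lysosomal genes, 35 passed higher and 8 lower, with a median of 0.37 and 2 called higher. Glb1, the gene of that β-galactosidase, read 57, 53.2, 58.6 and 58 CPM at P1 and 98.2, 88.7, 91.8 and 95.2 CPM at P7, and the groups did not overlap (log2 fold change of 0.72 ± 0.08, adjusted p = 4.35e-07). Ctsf, cathepsin F, read 10.8, 11.5, 13.7 and 13.9 CPM at P1 and 45, 40, 40.9 and 45.4 CPM at P7 (log2 fold change of 1.78 ± 0.18, adjusted p = 5.72e-08). Ctss (-6.70) and Atp6v0d2, which macrophages and osteoclasts make, were called lower with Ctsc (-1.65), and the P7 minus P3 differences of Ctss and Atp6v0d2 passed too, at -3.11 and -3.76. Atp6v0d2 fell from 928 reads over the P1 libraries to 3 over those of P7, by a factor of 270 (95% counting interval of 92.2 to 1.31e+03). The median of the list was -0.14 at P3 and 0.22 at P5 against P1.

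Among autophagy genes 23 of 32 passed higher and 1, Uvrag (-0.27), lower, with a median of 0.53 and 3 called higher. Their summed level was 2322, 2298, 2344 and 2402 CPM at P1 and 3433, 3339, 3259 and 3335 CPM at P7, and no library of one group reached the other. Gabarapl1, of the ATG8 family that coats autophagosomes, read 61.4, 61.4, 65 and 61.9 CPM at P1 and 144, 152, 144 and 147 CPM at P7 (log2 fold change of 1.23 ± 0.09, adjusted p = 4.09e-10). Map1lc3b (0.83 ± 0.09, adjusted p = 1.99e-07), its relative LC3B, Sqstm1 (0.60), the cargo receptor p62, and Ulk1 (0.60), the starting kinase, passed higher. The medians at P3 and P5 were 0.15 and 0.39, and P7 minus P3 was 0.35.

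Ribosome production and ribosomal proteins went apart. Of factors that make ribosomes and start translation, 2 of 42 tested genes passed higher and 33 lower (0 and 5 called), with a median log2 difference of -0.44. Polr1b, a subunit of RNA polymerase I, read 40, 41.2, 38.5 and 38 CPM at P1 and 12.3, 18.1, 14.1 and 16.9 CPM at P7 (log2 fold change of -1.36 ± 0.12, adjusted p = 5.47e-09), and Nop58 (-1.28), of the particles that modify ribosomal RNA, was called lower. Ncl (-0.83), nucleolin, Npm1 (-0.78) and the transcription factor Myc (-0.46) passed lower. Of 79 ribosomal protein genes, 37 passed higher and 0 lower, none was called, and the summed level was 32870, 32310, 30740 and 28820 CPM at P1 and 48720, 38830, 34560 and 32120 CPM at P7. The highest value was that of replicate 1 of P7, and without it the median fell from 0.31 to 0.16 and the number passed higher to 21. Without replicate 4 of P7 the median was 0.38 and 60 passed higher. Many ribosomal protein genes have near-identical pseudogenes, which makes their counts uncertain. Genes of the mitochondrial ribosome had 11 passed higher, 10 lower and none called of 51.

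Markers used to name fibroblasts and their subsets did not all persist. Of 22 tested markers, 9 passed higher and 5 lower. Dpp4, a marker of fibroblasts of the upper dermis lineage and of the fascia, read 2.74, 3.13, 1.98 and 4.95 CPM at P1 and 0.153, 0.0772, 0.461 and 0.297 CPM at P7, without overlap (log2 fold change of -3.65 ± 0.43, adjusted p = 4.62e-07), and Cd34 (-3.07 ± 0.24, adjusted p = 1.37e-09) and Entpd1 (-2.09 ± 0.28, adjusted p = 3.16e-06) were called lower too. Thy1 (1.21 ± 0.08, adjusted p = 1.71e-10), Cd248 (1.83 ± 0.13, adjusted p = 6.64e-10) and Gsn (1.12) were called higher, with Ly6a (1.90) and Ly6c1 (2.08), whose relatives make the counts uncertain. Vim (0.34), vimentin, passed higher, and En1 (-0.14) and Dpt (-0.28) did not pass. For Dpt, 21.8% of the exonic bases are shared with a transcript on the opposite strand.

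**Figure D4:**
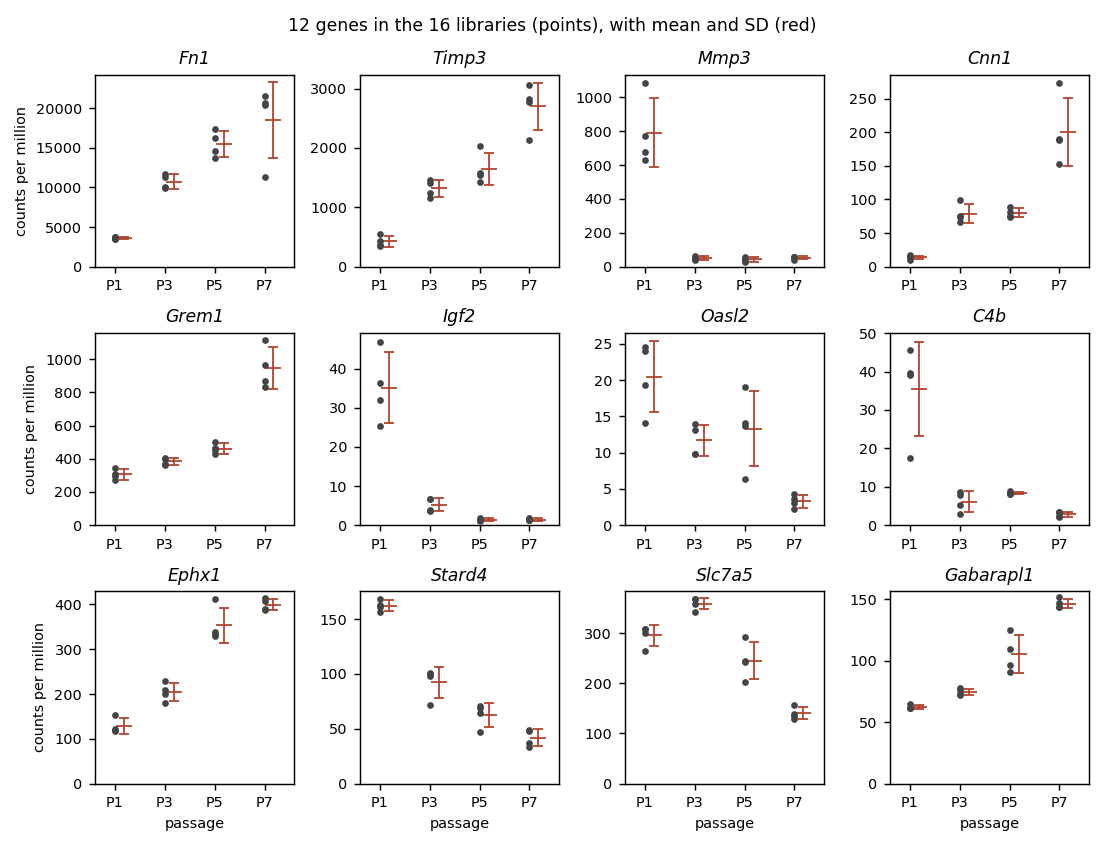
CPM of 12 genes in each of the 16 libraries of P1, P3, P5 and P7, with bars at the mean and error bars of 1 SD (n = 4). Fn1 and Timp3 climb between P1 and P3 and, by their means, again up to P7. Mmp3, Igf2 and C4b drop between P1 and P3, and Grem1 and Gabarapl1 have most of their rise after P3.

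The course over passages differed between lists. Against P1, the complement and cholesterol lists stood at -0.78 and -0.60 at P3, where their values at P7 were -0.82 and -0.82. Interferon-stimulated genes stood at -0.21 at P5 and -1.05 at P7, and lysosomal genes at -0.14 at P3 and 0.37 at P7. Autophagy genes stood at 0.39 at P5 and 0.53 at P7, p53 targets at 0.59 and 0.58, and NRF2 targets at 0.17 and 0.25. All these values share the P1 libraries and are given side by side, without a test of their differences.

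**Figure D5:**
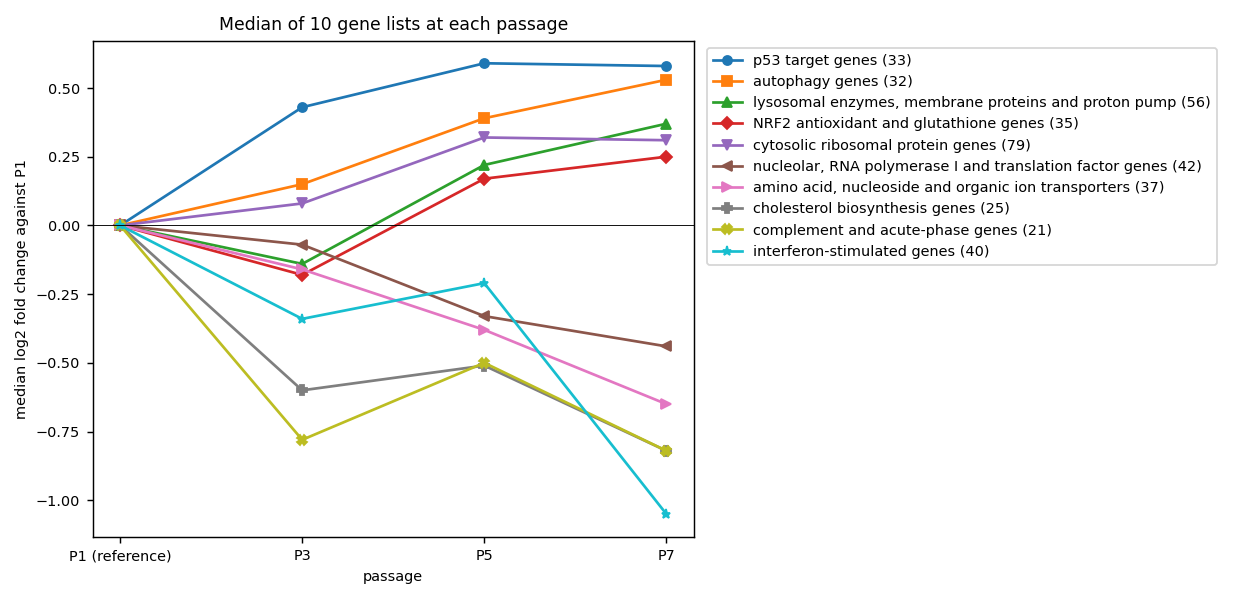
Median log2 difference from P1 over the tested genes of 10 lists at P3, P5 and P7 (P1 is 0 by construction), with no error bars because genes are not replicates. Complement and cholesterol drop by P3, the interferon line drops between P5 and P7, and the lysosome line crosses from below 0 to above it.

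Chromatin accessibility of the same passages was set beside the RNA for the promoters of the named genes. In the deposited ATAC-seq peak lists, a promoter was counted where a peak lay within 1000 bases of an annotated start site, and its strength was the percentile of the peak's -log10 p among all peaks of that sample. The samples had 168982 to 186562 peaks at P1 (n = 4) and 200376 to 231558 at P7 (n = 3), so percentiles depend on how many weak peaks were called, and no test was run on them. At Cnn1 the percentile was 53.6, 66.3, 52.5 and 60.9 at P1 and 77.8, 85.5 and 86.0 at P7, without overlap. Podn (59.8 to 82.1) and Hfe (58.8 to 77.5), whose RNA was called higher, also had higher medians at P7. Prl2c2 had a peak in 0 of 4 P1 samples and 3 of 3 P7 samples.

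Among genes called lower, Cfb had a promoter peak in 4 of 4 P1 samples and 0 of 3 P7 samples, and Scn3a in 4 of 4 and 1 of 3. The medians at Mmp3 (84.5 to 56.0), Dpp4 (65.2 to 10.9), Wnt16 (64.3 to 18.5) and Ifi27l2a (54.5 to 8.0) were lower at P7. RNA and accessibility did not always move together. Bnip3, called higher, had percentiles of 83.1 to 84.1 at P1 and of 60.5, 62.7 and 64.6 at P7, without overlap. At Pappa, among the genes that rose most, the percentile was 59.6, 58.4, 65.3 and 65.3 at P1 and 9.0, 5.7 and 60.0 at P7, where the third sample lay within the range of P1. At Psmb8 and Stard4, called lower, the medians were 95 and 95.6, and 99.4 and 99.1. These genes were picked for the size of the difference or its absence after the values were seen.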

How the data were processed

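RNA-seq counts of P1, P3, P5 and P7 mouse skin fibroblasts (4 libraries each) and ATAC-seq peak lists of P1 (n = 4) and P7 (n = 3) were used. The sample labels gave the groups and the replicate numbers. Trimming was by Trimmomatic 0.39, alignment to mm10 by Hisat2 2.2.1, and counting by HTSeq-count 0.12.4 with strand ignored, and the counts that the authors deposited are raw whole numbers for 24984 genes. Reads of overlapping or antisense genes therefore cannot be told apart, and near-identical genes have uncertain counts. The ATAC-seq reads went through the Kundaje lab's pipeline, with Bowtie2 and with MACS2 run on each sample alone, and the deposited -log10 p of each peak is the value of MACS2. The peak lists hold no read counts, so their depth is unknown. The libraries of the knockdown and overexpression experiments of the series and the ATAC-seq samples of the other passages were not used here.

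All 16 RNA-seq libraries were fitted in 1 model with edgeR 4.0.16 in R 4.3.3, with filterByExpr, TMM scaling, the quasi-likelihood test and the contrast P7 minus P1, which shares 1 estimate of the spread over the passages. A call needed an adjusted p under 0.05 and a difference over 2-fold, the thresholds of the study. The procedure was tested on simulated data. Ratios with few reads have exact binomial 95% intervals and a floor of 3 counts, which cover counting error only. The 55 pathway lists and the 8 lists set aside were written by hand, and the comparison and the lists were chosen with earlier results of these data known. The rule for named genes took the 12 highest and the 12 lowest called genes with an average log2 CPM of at least 3, no overlap between groups and no place in a set-aside list, key genes of each list, and up to 2 called genes per list and direction with an average log2 CPM of at least 1. Some genes that the rule names are not reported here. Of the 373 genes given with a value, 206 follow it and 167 were named after their values were seen, among them, of those given library by library, Ccng1, Cxcl12, Elovl6 and Mdk. Symbols were matched to RefSeq of GRCm38.p6, the assembly of mm10, 24463 by symbol and 435 by an older symbol, with 86 unmatched. Promoters of RefSeq, 250 bases before to 50 after the start, were searched on both strands for 14 lists, and the check was void for 7 lists with fewer than 80% of members matched. The same replicate number at P1 and P7 marked no shared animal or batch in the labels.

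The alternatives were DESeq2 1.42.0, its size factors, TMM without cell cycle genes and markers of other cell types, no filter, at least 10 counts in every library, glmTreat of edgeR against a fold change of 1.5, the P1 and P7 libraries alone, the replicate number as a block, and leaving out each library. Figures were drawn with matplotlib 3.10.9 in Python 3.11.15.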

Additional observations from a re-analysis of the deposited data

Results flagged for a closer look

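In each group of 4 libraries the highest and the lowest CPM of every gene given with a value were compared with the nearest other library, and a value was singled out when the gap exceeded the 95% limit of Dixon's test relative to the range of the group. Of 746 groups, 41 held such a value, and chance gives it in about 1 in 20 groups.

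Replicate 1 of P1 was highest for Idh2 (92.2 against 74.3 CPM), and it was lowest for Cpt1a (48.8 against 57.6 CPM). Replicate 2 of P1 was highest for Fosl1 (8.77 against 6.56 CPM), and it was lowest for Yap1 (166 against 182 CPM). Replicate 3 of P1 was highest for Fasn (926 against 846 CPM), Fos (10.1 against 8.29 CPM), Gabarapl1 (65 against 61.9 CPM), Itgb4 (33.7 against 22.6 CPM), Lama3 (54.6 against 14 CPM), Lamb3 (39.1 against 9.86 CPM), Nfkb1 (85.1 against 77.7 CPM) and Ptgs1 (78.5 against 69 CPM), and it was lowest for Cd248 (115 against 128 CPM), Cilp (35.8 against 40.3 CPM), Cpt2 (13.3 against 14.3 CPM) and Slc7a5 (263 against 301 CPM). Replicate 4 of P1 was highest for Cd59a (7.55 against 4.99 CPM), Cgas (12.6 against 11 CPM), Cryab (177 against 156 CPM), Ephx1 (154 against 122 CPM), Rgs4 (7.86 against 5.81 CPM) and Sparcl1 (19.99 against 14.9 CPM), and it was lowest for Ctss (64.7 against 94.3 CPM), Fth1 (856 against 1033 CPM), Hspa5 (1080 against 1245 CPM) and Ly6a (96.7 against 137 CPM). Lama3, Lamb3 and Itgb4 in replicate 3 are genes that keratinocytes also make, and that library held the highest summed level of keratinocyte markers, 718.9 CPM.

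Replicate 1 of P7 was highest for Cd36 (0.0763 against 0 CPM), Lcn2 (0.0763 against 0 CPM) and Wnt10a (0.153 against 0.0772 CPM), and it was lowest for Fn1 (11360 against 20410 CPM) and Tead1 (279.5 against 406 CPM). Replicate 2 of P7 was highest for Rgs16 (172 against 122 CPM) and Trp53 (112 against 98.4 CPM), and it was lowest for Podn (28.6 against 32.8 CPM). Replicate 3 of P7 was lowest for Foxd1 (0.307 against 0.817 CPM) and Gdf15 (10.1 against 14.3 CPM). Replicate 4 of P7 was highest for Axin2 (4.01 against 2.08 CPM), B3galt2 (24.9 against 12.2 CPM), Gja4 (0.0742 against 0 CPM) and Ltbp4 (35.9 against 22.7 CPM), and it was lowest for Fmod (58.9 against 81.1 CPM). For Cd36 and Lcn2 the value of replicate 1 is a single read where the other libraries had none. The log2 fold change of Fn1 keeps its direction with or without replicate 1.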

How the results depend on the processing

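With all libraries 2881 genes were called, 1089 higher and 1792 lower. With at least 10 counts in every library, 11634 genes were tested and 1796 called, 741 higher and 1055 lower, since genes near 0 in 1 group were left out. The other alternatives gave 2766 to 3522 calls, and leaving out 1 library 2894 to 3014 (1087 to 1156 higher and 1790 to 1910 lower). The share of the calls above that an alternative also called in the same direction was 60.8% with 10 counts in every library and 92.9% to 99.8% in the rest. No alternative reversed a gene given with a value. Of the 289 called genes among them, 15 fell to 2-fold or less, or did not pass, without 1 of the libraries, all at differences of 0.68 or more in size: Col12a1, Cox7a1, Egr1, F2r, Fasn, G6pdx, Gdf15, H2-K1, Irf7, Mgp, Ndufa6, Pdgfra, Peg3, Pparg and Prrx2. With glmTreat against a fold change of 1.5, 41 genes given with a value no longer passed. Acta2, Col1a1, Col1a2, Atf3, Glb1, Mdm2, Trp53, Yap1 and Wwtr1 were among these 41.

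With the replicate number as a block (replicate block), 2892 genes were called, 1088 higher and 1804 lower. Same-numbered P1 and P7 libraries correlated at 0.03 to 0.175 in their deviations from the group means, which is over 0.1 in 2 of the 4 pairs, and the numbers were therefore not taken to pair the samples. As a hint from the data in the other direction, 3 of the 4 P1 libraries correlated best with their own number at P7 and 4 of 4 at P3, but 2 of 4 at P5. With the block Cxcl1 (0.82, adjusted p = 0.0114 from edgeR) and Dpt (-0.30, adjusted p = 0.0361) passed, which they did not without it. With at least 10 counts in every library the medians of the imprinted, chemokine and growth factor lists were 0.25, 0.35 and 0.16, above 0 in place of below it, and those of the interferon-stimulated, complement and Wnt lists were -0.88, -0.24 and -0.11. With no filter the medians of the ion channel, prostaglandin, retinoid and cell death lists were -0.22, 0.02, -0.25 and -0.02. The depth of 13430229 to 14852051 reads limits genes near 1 CPM, where a library holds about 14 reads, and the cause of these shifts was not tested beyond the genes left out.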
